A study of Mus musculus with 6 samples.

Results

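The genes described here are 9 genes of platelets and of megakaryocytes, the bone marrow and spleen cells that shed platelets: Pf4, Ppbp, Itga2b, Itgb3, Gp9, Gp1bb, Clec1b, Gp6 and Treml1. They were taken by symbol, and all 9 were found among the 24346 genes listed in each library. RNA sequencing compared CD11c+ dendritic cells of mouse spleen, sorted magnetically with an autoMACS instrument, after treatment with the cytokine IL-33 (3 libraries) or with the vehicle PBS (3 libraries). The sources used here do not give strain, age, dose, time, the route of treatment or the number of animals behind a library. Replicates may therefore be technical, and p-values speak only of the variation among these 6 libraries.

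Platelets stop bleeding by sticking to exposed matrix and to each other. The GPIb-IX-V complex catches von Willebrand factor, the collagen receptor encoded by Gp6 and the podoplanin receptor CLEC-2, encoded by Clec1b, pass activating signals inward, and the integrin made of the Itga2b and Itgb3 chains then binds fibrinogen and joins platelets together. Granules release the chemokines encoded by Pf4 and Ppbp. Most of these genes are switched on during megakaryocyte development by GATA and ETS family transcription factors. Platelets have no nucleus but carry RNA from the megakaryocyte. Not every gene of the set is restricted to the lineage: CLEC-2 is also known from myeloid cells of the mouse, and the Itgb3 chain pairs with the Itgav chain in other cell types.

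The values are FPKM, fragments per kilobase of transcript scaled to sequencing depth, so levels can be compared between genes. The absolute depth is unknown, and depth relative to PBS replicate 1, read from the steps between low values, lay between 0.9455 and 1.216 without separating the groups. The sum of FPKM did separate them, at 778391 to 841884 with IL-33 and 614522 to 641412 with PBS. Among dendritic cell markers, Itgax, which encodes CD11c, stood at 228 to 300 FPKM over the 6 libraries. The class II gene H2-Ab1 stood at 4400 to 8030 FPKM and the growth factor receptor gene Flt3 at 65.4 to 119 FPKM. Other markers of that list were lower in level, such as Xcr1 at 7.06 to 16.7 FPKM. As deposited, Itgax (log2 change 0.23, SE 0.07) and H2-Ab1 were higher with IL-33, and Flt3 and Xcr1 were lower (limma adjusted p under 0.05). With libraries rescaled to equal totals, the higher genes of that list went from 6 to 4 and the lower ones from 6 to 8. Whether Itgax kept its call there is not given here. Macrophage markers were present as well, with C1qb at 411 to 979 FPKM and Cd68 at 221 to 385 FPKM.

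The set did not move as 1 block. Clec1b and Itga2b were higher with IL-33 and Itgb3 was lower, while the remaining members had higher means with IL-33 that did not pass the test or were too low to be tested. Of the 9 members, 5 passed the expression filter of at least 1 FPKM in at least 3 of 6 libraries and entered the fit across 11518 genes, and 2 of these rose, 1 fell and 2 did not pass (limma on log2(FPKM + 1), Benjamini-Hochberg adjusted p under 0.05). In the same fit 28.0% of all tested genes rose and 25.5% fell, 53.6% in either direction, so a call was no rare event in these libraries. Leaving out 1 library changed the count of higher members. It was 0 without IL-33 replicate 1, and 1 without IL-33 replicate 2, PBS replicate 2 or PBS replicate 3. It was 3 without IL-33 replicate 3 (Pf4, Ppbp and Clec1b) or PBS replicate 1 (Pf4, Itga2b and Clec1b). Itga2b failed the filter when any IL-33 library was left out, so it could not be called there. With libraries rescaled to equal totals the count was 0, with 2 at an unadjusted p under 0.05 (limma). Under that scaling 1280 of all 11518 tested genes were higher and 5840 lower. Itga2b passed the filter only through its IL-33 libraries, and it therefore had to be higher there to be tested at all. In a fit without the filter, over 17265 genes, the same 2 of the 9 members rose and the same 1 fell, where 18.5% of genes rose and 17.0% fell, 35.5% in either direction. By order of the libraries alone, 4 of the 9 members had all IL-33 libraries above all PBS libraries and 1 had them below. That compares with 24.6% and 24.7% of the 17265 genes, 49.2% in either direction, and with 63.6% of the 11518 tested genes. In bulk RNA, more cells of a type and more transcript per cell cannot be told apart.

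**Figure D1:**
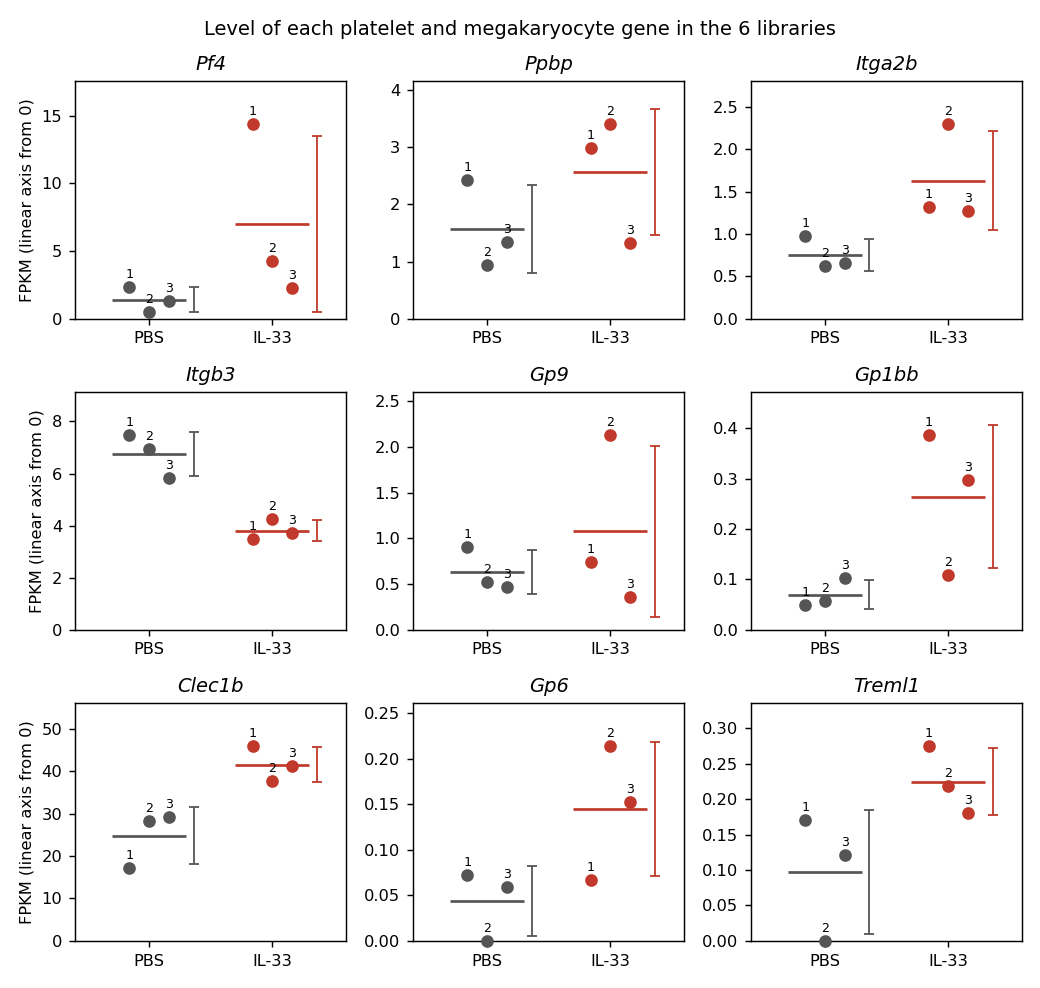
FPKM of each of the 9 members (vertical axis, linear from 0, with its own range in each panel) in the 3 PBS and the 3 IL-33 libraries, with replicate numbers beside the points, a horizontal line at the mean and the SD beside it (n = 3). Clec1b, Itga2b, Gp1bb and Treml1 lie higher in every IL-33 library and Itgb3 lies lower, while the high mean of Pf4 comes from replicate 1 and that of Gp9 from replicate 2.

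Pf4 and Ppbp encode platelet granule chemokines and lie side by side on chromosome 5, with 2371 bases between the end of Ppbp (chr5:90768518-90770063) and the start of Pf4 (chr5:90772435-90773383), both on the plus strand of mm10. Pf4 stood at 14.4, 4.26 and 2.28 FPKM with IL-33 and at 2.33, 0.494 and 1.33 FPKM with PBS, in the order of replicates 1, 2 and 3 used throughout. The groups overlapped, because IL-33 replicate 3 lay just under PBS replicate 1. Means were 6.97 ± 6.49 FPKM with IL-33 and 1.38 ± 0.92 FPKM with PBS (SD, n = 3 per group), and the log2 change of 1.51 (SE 0.55) did not pass (limma adjusted p = 0.0514). Without IL-33 replicate 1 the change was 0.88 (limma adjusted p = 0.096), and over all alternatives the adjusted p ran from 0.0147 to 0.142, with 7 of 16 past the threshold. Ppbp was at 2.99, 3.41 and 1.32 FPKM with IL-33 and at 2.42, 0.933 and 1.35 FPKM with PBS. Again 1 IL-33 library, replicate 3, lay among the PBS libraries, and the change of 0.46 (SE 0.29) did not pass (limma adjusted p = 0.21).

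The 2 neighbours did not keep a fixed ratio. Pf4 was at 4.81, 1.25 and 1.72 times the level of Ppbp in the IL-33 libraries and at 0.962, 0.530 and 0.984 times in the PBS libraries. Scaled for relative depth, the values of Pf4 stood within 0.04 of the whole numbers 86, 24 and 12 (IL-33) and 13, 3 and 9 (PBS) times a common step, and those of Ppbp within 0.04 of 41, 44 and 16 (IL-33) and 31, 13 and 21 (PBS). How many fragments make 1 step is not known. Within the same limits no common step was found for Itga2b, Itgb3, Gp1bb, Clec1b and Treml1. Other CXC chemokine genes of the same family and chromosome region were higher with IL-33. The neutrophil attractant genes Cxcl1 (29.8, 7.65 and 6.22 FPKM with IL-33 and 0.0920, 0.253 and 0.832 FPKM with PBS, log2 change 3.19, SE 0.52, limma adjusted p = 0.00241) and Cxcl2 (log2 change 2.46, SE 0.32, limma adjusted p = 0.00117) rose. Cxcl1 entered that fit only through its IL-33 libraries, and its adjusted p without a filter was 0.00812 (limma). Of the other 3 genes of that list, Cxcl3 was called higher without a filter, and Cxcl5 and Cxcl15 were listed at 0 in at least 5 of the 6 libraries.

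The promoter sequences of the chemokine pair and of 3 further members are printed because GATA and ETS factors are known to drive this gene programme and these members differed in how they moved. They are the 250 bases before the gene start that RefSeq gives on GRCm38.p6, written on the gene's own strand, and 8 of the 9 members were matched to such a sequence. Capitals mark GATAA or its reverse complement TTATC (the letters GATA factors bind) and AGGAAG or its reverse complement CTTCCT (letters ETS factors bind), which do not overlap each other here. The sources place the start of Itga2b differently: the RefSeq window lies before the protein-coding transcript of GENCODE M21 but mostly inside the GENCODE gene bounds given below, which a longer noncoding transcript extends.
Pf4, chr5:90772185-90772434, plus strand: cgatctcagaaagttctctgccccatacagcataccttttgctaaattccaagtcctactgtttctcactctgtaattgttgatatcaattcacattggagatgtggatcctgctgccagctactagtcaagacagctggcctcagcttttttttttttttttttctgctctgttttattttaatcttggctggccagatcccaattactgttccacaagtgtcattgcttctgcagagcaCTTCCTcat
Ppbp, chr5:90768268-90768517, plus strand: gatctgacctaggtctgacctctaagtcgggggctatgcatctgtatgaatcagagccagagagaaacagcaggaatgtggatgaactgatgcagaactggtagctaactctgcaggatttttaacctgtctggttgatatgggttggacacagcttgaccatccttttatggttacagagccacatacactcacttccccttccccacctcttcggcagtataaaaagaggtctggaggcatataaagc
Itga2b, chr11:102469884-102470133, minus strand: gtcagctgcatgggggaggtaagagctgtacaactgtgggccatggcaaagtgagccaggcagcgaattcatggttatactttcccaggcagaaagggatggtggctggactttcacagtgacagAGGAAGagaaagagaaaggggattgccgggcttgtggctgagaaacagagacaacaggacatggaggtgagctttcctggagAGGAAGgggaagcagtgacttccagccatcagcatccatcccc
Gp9, chr6:87777820-87778069, plus strand: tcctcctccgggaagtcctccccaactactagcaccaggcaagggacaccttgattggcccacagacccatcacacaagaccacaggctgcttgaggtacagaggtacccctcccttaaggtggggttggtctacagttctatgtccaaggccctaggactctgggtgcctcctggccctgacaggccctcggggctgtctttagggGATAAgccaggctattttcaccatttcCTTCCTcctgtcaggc
Clec1b, chr6:129397047-129397296, plus strand: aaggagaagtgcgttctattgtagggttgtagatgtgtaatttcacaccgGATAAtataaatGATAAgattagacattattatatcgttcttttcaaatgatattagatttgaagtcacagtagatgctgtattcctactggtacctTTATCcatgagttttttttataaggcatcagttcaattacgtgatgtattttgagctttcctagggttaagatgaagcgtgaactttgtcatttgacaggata
Clec1b, the highest member, held GATAA letters 3 times and no AGGAAG. Itga2b held AGGAAG letters 2 times and Pf4 once, and Gp9 held 1 of each kind close to its start. Ppbp, Gp1bb and Treml1 held neither, and Gp6 held GATAA once. Of the 8 promoters, 3 held GATAA and 3 held AGGAAG, against 22.6% and 29.5% of all 32851 promoter windows of this length. A match is a description of the letters only.

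The fibrinogen receptor chains moved in opposite directions. Itga2b (chr11:102453297-102470122, minus strand), the alpha chain that marks megakaryocytes and their progenitors, was at 1.32, 2.30 and 1.27 FPKM with IL-33 and at 0.971, 0.620 and 0.659 FPKM with PBS. All IL-33 libraries lay above all PBS libraries, as for 32.7% of tested genes, with replicate 2 highest. Itga2b passed the filter only through its IL-33 libraries, so its entry among the tested genes fixed that order. The share of tested genes is therefore no measure for it. Without the filter the order held for 24.6% of 17265 genes. The 2.17-fold higher mean passed (log2 change 0.57, SE 0.17, limma adjusted p = 0.0263), also without a filter (limma adjusted p = 0.0417). The call was lost without PBS replicate 2 (0.52, limma adjusted p = 0.0791) or PBS replicate 3 (0.54, limma adjusted p = 0.0641). Over the 13 alternatives that could be fitted the adjusted p ran from 0.00803 to 0.089, the latter with equal totals. Itgb3 (chr11:104608000-104670476, plus strand), the beta chain, was at 3.47, 4.25 and 3.70 FPKM with IL-33 and at 7.48, 6.94 and 5.81 FPKM with PBS. Its IL-33 libraries all lay below its PBS libraries, as for 30.9% of tested genes, and the groups were tight, at 3.81 ± 0.403 and 6.75 ± 0.852 FPKM. The fall, to a level 1.77-fold lower (log2 change -0.69, SE 0.11, limma adjusted p = 0.00241), passed under all 17 alternatives, from -0.97 to -0.55.

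The alpha and beta chains form a heterodimer in the platelet integrin, and their ratio was followed library by library. Itgb3 stood at 7.71, 11.2 and 8.82 times the level of Itga2b in the PBS libraries and at 2.63, 1.85 and 2.91 times in the IL-33 libraries. The ratio was 3.78-fold lower with IL-33 as a geometric mean (difference of log2 ratios -1.92). Since Itgb3 was lower and Itga2b higher in every IL-33 library, the ratios could not overlap. The exact two-sided permutation p of 0.1, the smallest that 3 against 3 libraries allow, was fixed by those orders. It adds nothing to the results of the single genes. In every library there was more Itgb3 than Itga2b transcript per length. The gene of the other partner of the beta chain, Itgav, which together with Itgb3 forms the vitronectin receptor, was lower as well, at 6.16, 6.5 and 5.6 FPKM with IL-33 and 8.0, 9.45 and 8.76 FPKM with PBS (log2 change -0.46, SE 0.09, limma adjusted p = 0.00496). Its level lay above that of Itga2b in all 6 libraries.

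The von Willebrand factor receptor was represented by few transcripts. Gp9 (chr6:87778072-87779768, plus strand), its GPIX chain, was at 0.738, 2.13 and 0.359 FPKM with IL-33 and at 0.904, 0.519 and 0.465 FPKM with PBS. Only IL-33 replicate 2 stood above the PBS range, and the lowest value of all was also an IL-33 library. Gp9 did not pass the expression filter, the exact permutation p was 0.7, and the difference of log2 means was 0.27 with all libraries and -0.07 without IL-33 replicate 2. Its values were within 0.04 of 7, 19 and 3 steps (IL-33) and 8, 5 and 5 steps (PBS). Gp1bb (chr16:18620317-18622403, minus strand), the GPIb beta chain, was at 0.387, 0.109 and 0.297 FPKM with IL-33 and at 0.0486, 0.0572 and 0.103 FPKM with PBS. Here the groups did not overlap, by a narrow gap between IL-33 replicate 2 and PBS replicate 3, and the exact permutation p was 0.1. Of all genes above 0 in at least 1 library, 24.6% had all IL-33 libraries above all PBS libraries.

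Gp1bb cannot be separated from its neighbour with certainty. In GENCODE M21, Sept5, a septin gene on the same strand, shares 91.1% of the exon bases of Gp1bb. Sept5 was at 1.72, 1.6 and 1.06 FPKM with IL-33 and 0.527, 0.505 and 0.496 FPKM with PBS and rose (log2 change 0.69, SE 0.13, limma adjusted p = 0.00457). It passed the filter only through its IL-33 libraries, and the adjusted p without a filter was 0.00638 (limma). How the authors' counting divided shared fragments is not given in the sources used here, and the part of Sept5 in the Gp1bb values was not tested. Gp1ba, which holds the binding site for von Willebrand factor, was at 0.302, 0.642 and 0.372 FPKM with IL-33 and at 1.38, 0.645 and 0.889 FPKM with PBS. Gp5 was at 0.191, 0.271 and 0.0724 FPKM with IL-33 and at 0.103, 0.189 and 0.141 FPKM with PBS, and its groups overlapped. All IL-33 libraries of Gp1ba lay below its PBS libraries, by 0.642 against 0.645 FPKM at the nearest pair. That order held for 24.7% of all genes above 0 in at least 1 library. Neither Gp1ba nor Gp5 passed in the fit without a filter, so 0 of the 4 genes of the complex were called (limma). In that fit 35.5% of all 17265 genes were called. Gp1bb (higher) and Gp1ba (lower), 2 of the 4, were at an unadjusted p under 0.05 there. So were 3955 genes in the higher and 3908 in the lower direction, of 17265.

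Clec1b (chr6:129397297-129409335, plus strand) was by far the highest member. CLEC-2 binds podoplanin and signals through Syk. Its transcript was at 45.9, 37.6 and 41.2 FPKM with IL-33 and at 17.2, 28.2 and 29.1 FPKM with PBS. Every IL-33 library lay above every PBS library, and the lowest of all was PBS replicate 1. The mean was 1.67-fold higher, 41.6 ± 4.18 against 24.9 ± 6.62 FPKM (log2 change 0.75, SE 0.19, limma adjusted p = 0.0138). The call was lost without IL-33 replicate 1 (0.68, limma adjusted p = 0.0512) and with equal totals (0.42, limma adjusted p = 0.0638), and held under 15 of 17 alternatives. Clec1b alone made up 54.5% to 81.2% of the summed FPKM of the 9 members in a library, and its mean level lay at percentile 84.0 of genes above 0 in at least 1 library, where that of Gp9 lay at percentile 32.2. Clec9a, a gene of cross-presenting dendritic cells on the same strand, shares 184 of the 5103 exon bases of Clec1b (3.61%). Clec9a itself was lower with IL-33, at 19.9, 20.7 and 22.9 FPKM against 35.1, 33.2 and 29.2 FPKM (log2 change -0.60, SE 0.09, limma adjusted p = 0.00189). Podoplanin (Pdpn), the ligand, was listed at 0 in 5 of 6 libraries.

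Gp6 and Treml1 had the lowest mean levels of the 9 members over the 6 libraries, at 0.0943 and 0.161 FPKM, just under Gp1bb at 0.167 FPKM. Gp6 (chr7:4363965-4397744, minus strand) was at 0.0673, 0.214 and 0.153 FPKM with IL-33 and at 0.0722, 0 and 0.0594 FPKM with PBS. These values stood at 1, 3 and 2 steps (IL-33) and 1, 0 and 1 step (PBS), the groups overlapped, and the exact permutation p was 0.2. How many fragments make 1 step of Gp6 is not known either. The signalling partner of its product is the Fc receptor gamma chain, encoded by Fcer1g, a gene widely used by myeloid cells. Fcer1g was at 1260 to 1430 FPKM with IL-33 and 801 to 1030 FPKM with PBS (log2 change 0.50, SE 0.11, limma adjusted p = 0.00828). It belongs to a list of partners and ligands of the members, of which 9 were tested. Of these, 3 rose (Sept5, Vwf and Fcer1g) and 2 fell. With libraries rescaled to equal totals 1 rose and 5 fell, and with quantile normalization or cyclic loess 2 rose and 3 fell. Which genes kept their call is not given here. Treml1 (chr17:48359916-48367176, plus strand), whose product sits in granule membranes and reaches the surface on activation, was at 0.275, 0.219 and 0.181 FPKM with IL-33 and at 0.171, 0 and 0.121 FPKM with PBS. Its groups did not overlap, and the exact permutation p was 0.1. A listed 0 may be a failed estimate in these tables, in which 51 features at 0 in 1 library reached 100 FPKM or more in another. Summed over Gp9, Gp1bb, Treml1 and Gp6, levels were 1.47, 2.67 and 0.988 FPKM with IL-33 and 1.20, 0.576 and 0.748 FPKM with PBS, so these 4 genes together stayed below Itgb3 alone in every library.

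**Figure D2:**
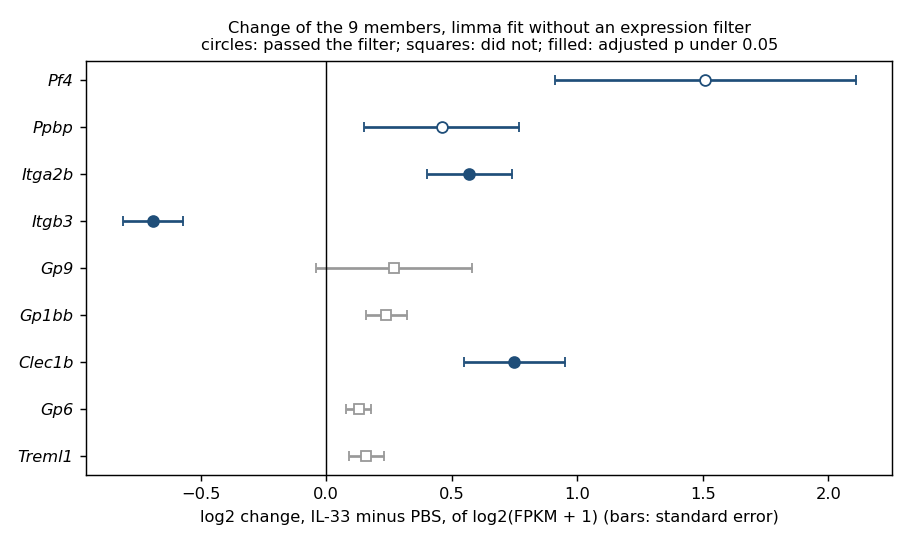
Log2 change of each of the 9 members (horizontal axis, log2(FPKM + 1) with IL-33 less that with PBS, bars are the standard error) in the limma fit without an expression filter. Clec1b, Itga2b and Itgb3 have filled symbols for an adjusted p under 0.05, Itgb3 is the only member left of 0, and the 4 squares are members that did not pass the expression filter.

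The members also differed in which library held most of their transcript. IL-33 replicate 1 was the highest library for 4 members (Pf4, Gp1bb, Clec1b and Treml1), IL-33 replicate 2 for 4 (Ppbp, Itga2b, Gp9 and Gp6) and PBS replicate 1 for Itgb3. PBS replicate 2 was the lowest library for 5 members. The fold between the highest and the lowest library of the IL-33 group was 6.32 for Pf4 and 5.93 for Gp9 but 1.23 for Itgb3, and Clec1b was as tight as Itgb3 there.

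**Figure D3:**
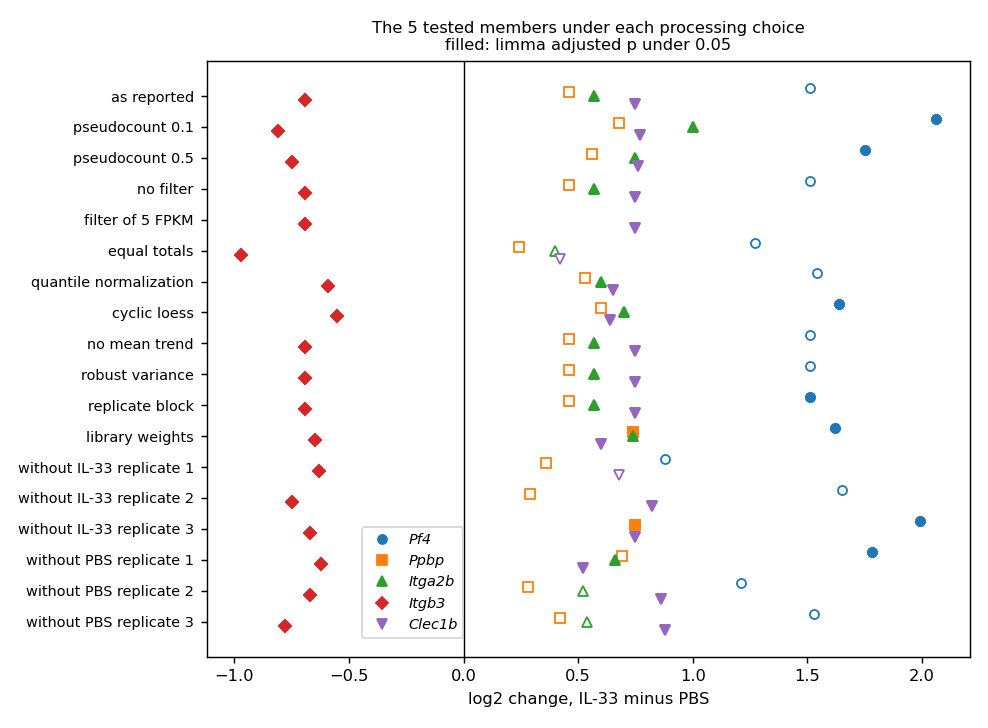
Log2 change (horizontal axis, IL-33 minus PBS) of the 5 tested members under each processing choice (rows), with filled symbols for a limma adjusted p under 0.05. Itgb3 stays filled and left of 0 in each row, Pf4 moves between 0.88 and 2.06 and is filled in some rows only, and a row lacks a symbol where the member did not pass the filter.

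Profiles over the 6 libraries were compared by the root mean square difference of log2(FPKM + 1) values after subtracting each gene's mean. The nearest tested gene to Itga2b was Myl9, the light chain of smooth muscle and platelet myosin (difference 0.10), at 1.23, 2.16 and 1.07 FPKM with IL-33 and 0.623, 0.358 and 0.640 FPKM with PBS. Next to it came Mkl2 and Mpg (0.12 each). The nearest to Pf4 was the acute phase gene Saa3 (0.15), which had the same order of libraries, at 28.1, 10.7 and 6.47 FPKM with IL-33 and 6.96, 1.94 and 4.86 FPKM with PBS, while Mucl1 (0.46) and the monocyte chemokine gene Ccl7 (0.47) followed at a distance. Clec1b was nearest to Ccrl2 (0.045), Pilra (0.065) and Rab3il1 (0.066). Prpf4b (0.031) and Khnyn (0.032) were among the 3 nearest to Itgb3. Ppbp was nearest to Neurl2 (0.17), Ptpn7 (0.18) and Pradc1 (0.18). None of these neighbours was itself a member, but only 5 members were among the 11518 tested genes from which neighbours were taken. Myl9, Mucl1 and Ccl7 passed the filter only through their IL-33 libraries.

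Platelet genes outside the 9 members also split between rises and falls. Of 22 further receptor genes 21 were matched and 14 tested, and 5 rose, 5 fell and 4 did not pass, with a median log2 change of 0.05 against 0.01 over all tested genes. The prostacyclin receptor gene Ptgir had means of 10.7 ± 1.23 FPKM with IL-33 and 2.01 ± 0.464 FPKM with PBS and rose (1.97, SE 0.13), the tetraspanin gene Cd9 rose by 1.25 (SE 0.11), the ATP channel gene P2rx1, which passed the filter through its IL-33 libraries, by 1.44 (SE 0.19) and the adhesion gene Pecam1 by 0.79 (SE 0.08). The receptor genes Itga2, Pear1, Tbxa2r, F2r and Cd226 fell, named here after their values were seen because they make up the 5 falls. Itga2 and Tbxa2r passed the filter only through their PBS libraries, and F2r was not called without a filter (limma adjusted p = 0.0699).

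Among 20 genes of other granule proteins 14 were tested, and 7 rose, 2 fell and 5 did not pass (median 0.37). Among the rises with the smallest adjusted p were the proteoglycan gene Srgn (log2 change 0.73, SE 0.11), the coagulation factor gene F5 (1.01, SE 0.16) and the clusterin gene Clu (1.19, SE 0.20). F5 passed the filter only through its IL-33 libraries. Vwf, stored in platelet and endothelial granules, was at 3.45, 3.41 and 3.54 FPKM with IL-33 and at 2.09, 2.52 and 2.27 FPKM with PBS, and rose by 0.44 (SE 0.09, limma adjusted p = 0.00551). Selp, which encodes the P-selectin of the same granules, was at 0.570, 0.292 and 0.134 FPKM with IL-33 and at 0.148, 0.116 and 0.139 FPKM with PBS and did not pass the filter. Of 29 signalling and cytoskeletal genes 28 were matched and 21 tested, with 8 higher, 6 lower and 7 that did not pass (median 0.09). Rgs10 (1.07, SE 0.08), the thromboxane synthase gene Tbxas1 (1.21, SE 0.17) and the integrin activator gene Fermt3 (0.48, SE 0.07) rose and the adaptor gene Fyb fell (-0.66, SE 0.09). Tubb1, the beta tubulin of platelets, was at 1.84, 1.16 and 0.843 FPKM with IL-33 and at 0.948, 0.279 and 0.718 FPKM with PBS, with overlap.

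Of 13 transcription factor genes of the lineage 9 were tested, and 1 rose, 3 fell and 5 did not pass (median -0.32). Gfi1b, a repressor needed for megakaryocyte and erythroid development, had means of 3.0 ± 0.54 FPKM with IL-33 and 0.165 ± 0.139 FPKM with PBS and rose (1.78, SE 0.15, limma adjusted p = 0.000278), and it passed the filter only through its IL-33 libraries. Zfpm1, the GATA1 cofactor gene, fell by 0.68 (SE 0.16), and Lyl1 by 0.56 (SE 0.18). Gata1 was at 0.900, 1.23 and 0.723 FPKM with IL-33 and at 0.201, 0.148 and 0.298 FPKM with PBS and was called higher in the fit without a filter. Nfe2, needed for platelet release, was at 12.4, 11.5 and 6.39 FPKM with IL-33 and at 12.1, 12 and 13 FPKM with PBS and did not pass. Without the filter, 8 of 21 receptor genes rose and 4 fell, 6 of 20 granule genes rose and 2 fell, 10 of 28 signalling genes rose and 7 fell, and 3 of 13 factor genes rose and 2 fell. With libraries rescaled to equal totals the median of all tested genes moved to -0.29, and relative to it the list medians were 0.04, 0.41, 0.04 and -0.29 in the same order. Under that scaling the counts of higher and lower genes were 5 and 6, 4 and 4, 3 and 11, and 1 and 7. The signalling list also turned with quantile normalization (4 higher, 8 lower, median -0.03) and cyclic loess (4 higher, 9 lower, median -0.02), and the receptor list had 5 higher and 3 lower with cyclic loess.

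**Figure D4:**
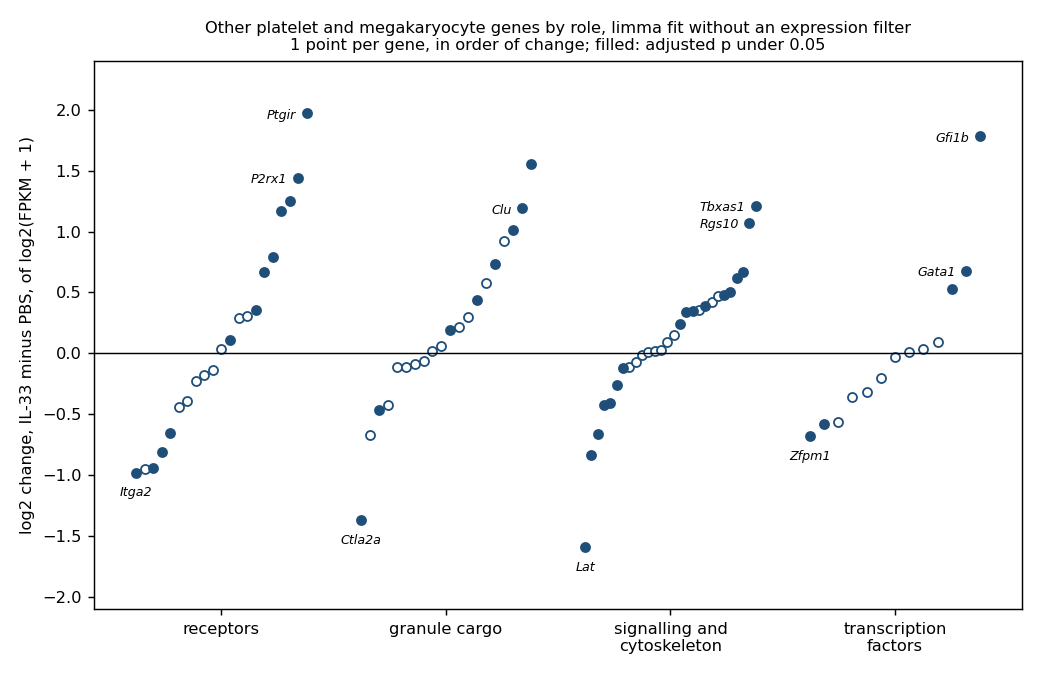
Log2 change (vertical axis, mean log2(FPKM + 1) of IL-33 libraries less that of PBS libraries) of each platelet or megakaryocyte gene outside the 9 members, in 4 columns by role, in the limma fit without an expression filter, with filled points for an adjusted p under 0.05. Each column runs from falls to rises, from Lat at the bottom of the signalling genes to Ptgir at the top of the receptors.

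Several of these genes are shared with other cells of the spleen, whose markers moved in the same libraries. Of 14 basophil and mast cell markers, which include Gata1 and Gata2, 9 were tested, 6 rose and 1 fell (median 1.14), and 5 passed the filter only through their IL-33 libraries. Their summed FPKM was 51.3 to 60.7 with IL-33 and 47.0 to 51.7 with PBS. Kit, also a progenitor marker, made up most of that sum with PBS, at 35.8 to 41.9 FPKM. It was the marker that fell (-0.80, SE 0.13), to 18.6 to 26.5 FPKM with IL-33. Cd200r3 (1.58, SE 0.13), Cpa3, Mcpt8 and Prss34 were the rises with the smallest adjusted p. Of 20 erythroid markers 17 were matched and 8 tested, 3 rose (Car1, Car2 and Epor) and 0 fell (limma, also 0 at an unadjusted p under 0.05), while 1 rose with equal totals and Epor was not called without a filter (limma adjusted p = 0.0822). Their levels gave a summed FPKM of 112 to 676 with IL-33 and 191 to 1210 with PBS. The globin gene Hbb-b1, named after its values were seen, ran at 307, 73.6 and 31.7 FPKM with IL-33 and at 579, 208 and 90.4 FPKM with PBS, and like Pf4 it was highest in replicate 1 of each group. Of 12 progenitor markers 7 were tested, of which Mpo, which passed the filter only through its IL-33 libraries, rose and Kit, Flt3, Myb and Cd34 fell. All 20 macrophage and monocyte markers were tested, 5 rose and 1 fell (median 0.31, and -0.03 with equal totals, where 0 rose and 2 fell), with a summed FPKM of 6330 to 8180 with IL-33 and 4430 to 6620 with PBS. Of 12 endothelial markers 5 were tested, 2 rose (Pecam1 and Vwf) and 2 fell (Cdh5 and Kdr). Their summed FPKM was 92.2 to 102 with IL-33 and 62.0 to 70.9 with PBS. Pecam1 alone made up most of that sum, at 72.8 to 80.0 FPKM with IL-33 and 40.1 to 45.4 FPKM with PBS. Esam stood at 12.7 to 15.6 FPKM with IL-33 and 12.7 to 17.7 FPKM with PBS. Tek and Tie1 stayed at 0.353 FPKM or less. Emcn was listed at 0 in all 3 IL-33 libraries and at 0.0561, 0 and 0.0923 FPKM with PBS. Eosinophil markers rose in 6 of 8 (summed FPKM 870 to 1240 with IL-33 and 216 to 310 with PBS), 3 of which passed the filter only through their IL-33 libraries, and neutrophil markers in 8 of 9 tested (1240 to 2500 and 485 to 803). All 8 T cell markers fell (111 to 119 and 247 to 433), 2 of 8 B cell markers fell (359 to 482 and 316 to 755), and of 14 dendritic cell markers 6 rose and 6 fell. Rescaling moved the dendritic cell counts to 4 higher and 8 lower (equal totals, quantile normalization) or 3 higher and 8 lower (cyclic loess). With equal totals the endothelial counts were 1 higher and 3 lower, and the neutrophil counts 8 higher and 1 lower. The part of these cell types in the values of the 9 members was not tested.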

How the data were processed

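Messenger RNA of CD11c+ cells from spleen was sequenced in 3 libraries per treatment, IL-33 or PBS. A strand-preserving kit and a DNase step were used, per the labels' protocols. The authors deposited 1 table per library with an FPKM value for each of 24346 symbols. Per the submitters' processing notes, the tools included Cuffnorm 2.2.1, SAMtools 0.1.19, TopHat2 2.0.13 and Bowtie2 2.2.3, with mm10 as the build. Annotation, scaling method and strand setting: not given in the sources used here. FPKM keep no counts, so depth is known only in relative terms.

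Values were analysed as log2(FPKM + 1), which understates changes of low genes. The 11518 genes that reached 1 FPKM in 3 or more of the 6 libraries were fitted with limma 3.58.1 (R 4.3.3), with a variance trend and no block, two-sided, with Benjamini-Hochberg adjustment over all of them and a threshold of 0.05. The fit was tested on simulated data. Members outside the filter were given by value, by an exact permutation test and by the fit without a filter. The members and gene lists were chosen with earlier results of these data known. Genes beside the members were named by rule: up to 4 called genes of each list with the smallest adjusted p, a fixed set of lineage genes, genes overlapping a member, and the 3 nearest profiles to each tested member. A few genes that this rule names are not reported here. Other list genes given by value (such as Itgax, H2-Ab1, Pdpn, Cxcl3, Cxcl5, Cxcl15, Cd34, Esam, Tek, Tie1 and Emcn) fall outside it and were chosen after their values were seen. Whole-number steps were accepted within 0.04 of a step, with multipliers up to 20, a limit set after seeing the values. Alternatives were other pseudocounts (0.1 and 0.5), no filter or a filter of 5 FPKM, equal totals, quantile normalization, cyclic loess, other variance settings, a replicate block, library weights, and leaving out each library. Positions came from GENCODE M21 (GRCm38, also called mm10) and promoters from RefSeq (GRCm38.p6). Python 3.11.15 with numpy 2.4.6 and pandas 2.3.3 made the tables, and matplotlib 3.10.9 the plots.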

Additional observations from a re-analysis of the deposited data

How the results depend on the processing

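With libraries rescaled to equal totals, 1280 genes were higher and 5840 lower, compared with 3230 and 2939 as deposited, and 0 members were higher (limma, 2 at an unadjusted p under 0.05): Clec1b was at 0.42 (adjusted p = 0.0638) and Itga2b at 0.40 (adjusted p = 0.089), or 0.71 and 0.69 above the all-gene median. The count of higher members was 1 with a filter of 5 FPKM, which only Clec1b and Itgb3 passed, and 4 with library weights. Leave-one-out counts were 0 (without IL-33 replicate 1, with 1 at an unadjusted p under 0.05) to 3, with 1 without IL-33 replicate 2, PBS replicate 2 or PBS replicate 3. Pf4 passed with a pseudocount of 0.1 (2.06) or 0.5 (1.75), cyclic loess (1.64) and library weights (1.62), and Ppbp with library weights (0.74). With 1 library left out, Pf4 ranged from 0.88 to 1.99 and passed without IL-33 replicate 3 or PBS replicate 1, Ppbp ranged from 0.28 to 0.75 and passed without IL-33 replicate 3, Itga2b from 0.52 to 0.66 and Clec1b from 0.52 to 0.88. Itga2b could not be fitted without any 1 IL-33 library, since it then failed the filter. Itgb3 kept its direction and its call under all 17 alternatives. With 1 library left out, all-gene counts were 2499 to 3107 higher and 2211 to 2642 lower. The replicate numbers were not taken to pair the libraries: same-numbered libraries correlated at 0.075, -0.054 and 0.089 in their deviations from the group means, and 4 of 6 correlated best with their own number, a hint from the data only. The cause of each of these changes was not tested, and with the replicate number as a block 2806 genes were higher and 2452 lower, 3 members were higher and Pf4 passed (1.51, adjusted p = 0.0147). Depth is known only in relative terms, so no limit of detection is given for the members outside the filter.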
